A study of Mus musculus with 12 samples.

Results

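The genes described here encode the voltage-gated sodium channels, the voltage-gated calcium channels and the hyperpolarization-activated Hcn channels of the mouse brain. Members were the rows of the deposited count table whose mouse symbol belonged to the *Scn* alpha or beta, *Cacna* (alpha1 and alpha2delta), *Cacnb*, *Cacng* or *Hcn* series. Of 44 such genes, 42 had a total of at least 50 reads over all libraries and were kept, out of 49315 rows in the table. *Scn4a* and *Cacng1*, both known from skeletal muscle, had totals of 18 and 24 reads and were left out. Bulk RNA-sequencing was performed on brains collected 14 d post-stroke from 12 mice, 6 in each of the groups named WT and *Tet2*-KO. All mice were CD45.1 Pep Boy recipients aged 8 to 12 weeks at head-shielded irradiation, and all underwent 30 min of middle cerebral artery occlusion 8 to 10 weeks after the bone marrow (BM) transplant. In the *Tet2*-KO group 10% of the transplanted BM cells were CD45.2 *Tet2*-/- cells, and in the WT group the same share was CD45.2 *Tet2*+/+ cells. The other 90% were CD45.1 *Tet2*+/+ cells in both groups. The genotype therefore applies to a share of the blood cells, while neurons and the other resident cells of the recipient brain were *Tet2*-sufficient in both groups, and no library came from a mouse without stroke.

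Voltage-gated channels turn changes in membrane voltage into ion flow. Sodium channels, a pore-forming alpha subunit with auxiliary beta subunits, carry the upstroke of the action potential. Calcium channels, a pore-forming alpha1 subunit with alpha2delta and beta subunits, couple electrical activity to transmitter release, dendritic signalling and gene expression. Most *Cacng* genes expressed in brain encode TARPs, which bring AMPA-type glutamate receptors to synapses, and Hcn channels carry the pacemaker current that sets resting potential and rhythmic firing. In the brain most of these genes are expressed mainly by neurons.

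Library totals ranged from 12000261 to 21049763 counted reads. Levels are given as CPM, the reads of a gene relative to the TMM-scaled size of its library, with n = 6 mice per group, and fold changes as log2 of *Tet2*-KO over WT ± standard error (SE). *Tet2* itself was read at 126 to 147 CPM in WT and 117 to 137 CPM in *Tet2*-KO libraries (log2 fold change -0.0097, adjusted p = 0.934 in edgeR), a level that recipient brain cells with an intact gene contribute to and that does not check the graft. All 10 neuron markers were detected in every library, and the summed level of the list was 4020 to 5464 CPM in WT and 5110 to 6695 CPM in *Tet2*-KO mice, as the tissue label implies. WT mouse 2 stood apart from the rest of its group, with the lowest neuron-marker sum and the highest sums of activated phagocyte and fibroblast markers, so counts of members, markers and partners are also given without it. Over all genes 5 passed the adjusted threshold in edgeR, and 4 did without this mouse.

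Channel genes lay slightly higher in the *Tet2*-KO group than in the WT group, and no single gene passed the threshold of the test across all genes. Of the 42 members, 39 had enough reads to be tested. Their median log2 fold change was 0.18, against 0.010 over all 20290 tested genes, and 36 of 39 were above 0, as were 52.3% of all tested genes. At an unadjusted p below 0.05, 21 members were higher (10.8% of all tested genes were) and 0 were lower (12.2% of all tested genes were). After Benjamini-Hochberg adjustment in edgeR's quasi-likelihood test, 0 members were below 0.05, with a smallest adjusted p of 0.110, while 0.0246% of all tested genes were below it. The DESeq2 Wald test put 3 members past the threshold, *Cacna1b* and *Cacng7* among them. That fit kept every gene with a read, unlike the edgeR fit above and the limma-voom fit below. Of its 37682 genes with a p-value, 0.523% were called higher. These include genes with few reads, so this share cannot be set directly beside those of the filtered fits. With limma-voom and quality weights, *Scn2a*, *Cacna2d1* and *Cacng3* were past the threshold too, a count of 6. In that fit 2.8% of all 20290 tested genes were called higher. In no member did the lowest *Tet2*-KO mouse lie above the highest WT mouse, which was so in 0.453% of all tested genes, nor the highest below the lowest, which was so in 0.641%. In 24 of the 39 at least 5 of the 6 *Tet2*-KO mice lay above the WT mean, as in 26% of all tested genes, and in 10 all 6 did, as in 9.48%. In bulk tissue, a higher share of neuronal RNA and more channel RNA per neuron in one group than in the other cannot be told apart.

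**Figure D1:**
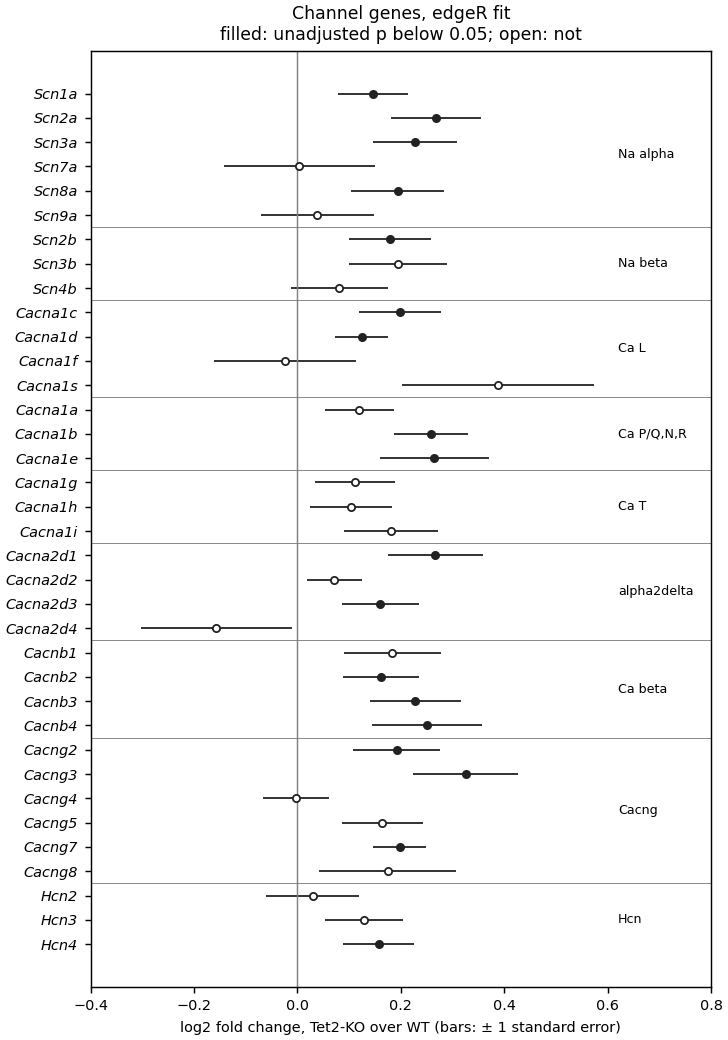
Log2 fold change (x axis, *Tet2*-KO over WT) of 36 of the 39 tested channel genes, in rows grouped by subfamily. Points are edgeR estimates with bars of ± 1 SE, filled at an unadjusted p below 0.05 and open otherwise. The 18 filled points all lie right of 0, and *Cacna1s* (0.39) and *Cacna2d4* (-0.16) mark the ends of the range shown.

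Markers of 3 cell types are given beside the channel genes, and none of them passed the adjusted threshold in edgeR (smallest adjusted p 0.121 for neurons, 0.142 for activated phagocytes and 0.121 for fibroblasts). Of the 10 neuron markers, 8 were higher in *Tet2*-KO mice at an unadjusted p below 0.05 and 0 lower, with a median log2 fold change of 0.21. Of 7 activated phagocyte markers (such as *Gpnmb* and *Lyz2*), 6 were lower at that level and 0 higher, with a median of -1.62. Their summed level was 1039 to 2702 CPM in WT and 66.8 to 1542 CPM in *Tet2*-KO mice. All 6 fibroblast markers (such as *Col1a1* and *Dcn*) were lower at that level, with a median of -1.33 and sums of 560 to 1282 CPM against 126 to 715 CPM. These counts stand against 10.8% of all tested genes higher and 12.2% lower. Without WT mouse 2, 6 of 10 neuron markers were higher, and 2 of 7 activated phagocyte and 4 of 6 fibroblast markers lower, against 7.37% and 7.92% of all genes. No marker of these 3 lists was at 0 in any library, and the part of these shifts in the channel values was not tested.

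Per exon length, the members spanned more than 3 orders of magnitude within one tissue. The scale is CPM per kilobase of exon in WT mice, with SD. High levels were those of *Hcn2* (58.3 ± 6.03), *Cacng7* (54.5 ± 2.84) and *Scn2b* (47.6 ± 4.18). *Hcn2* and *Cacng7* did not differ beyond their spread. Among pore-forming subunits the order ran from *Hcn2* through *Scn2a* (30.4 ± 3.69), *Scn8a* (26.1 ± 2.93), *Cacna1a* (25.9 ± 1.81), *Cacna1e* (23.0 ± 3.38) and *Cacna1b* (20.9 ± 1.68) to *Scn1a* (19.7 ± 1.19), with neighbours from *Scn2a* on overlapping in their SDs. Genes known from other tissues lay at the bottom: *Cacna1s* of skeletal muscle (0.270 ± 0.0571), *Cacna1f* of the retina (0.266 ± 0.0319), and the sensory-neuron genes *Scn11a* (0.0411 ± 0.0139) and *Scn10a* (0.0309 ± 0.0226).

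**Figure D2:**
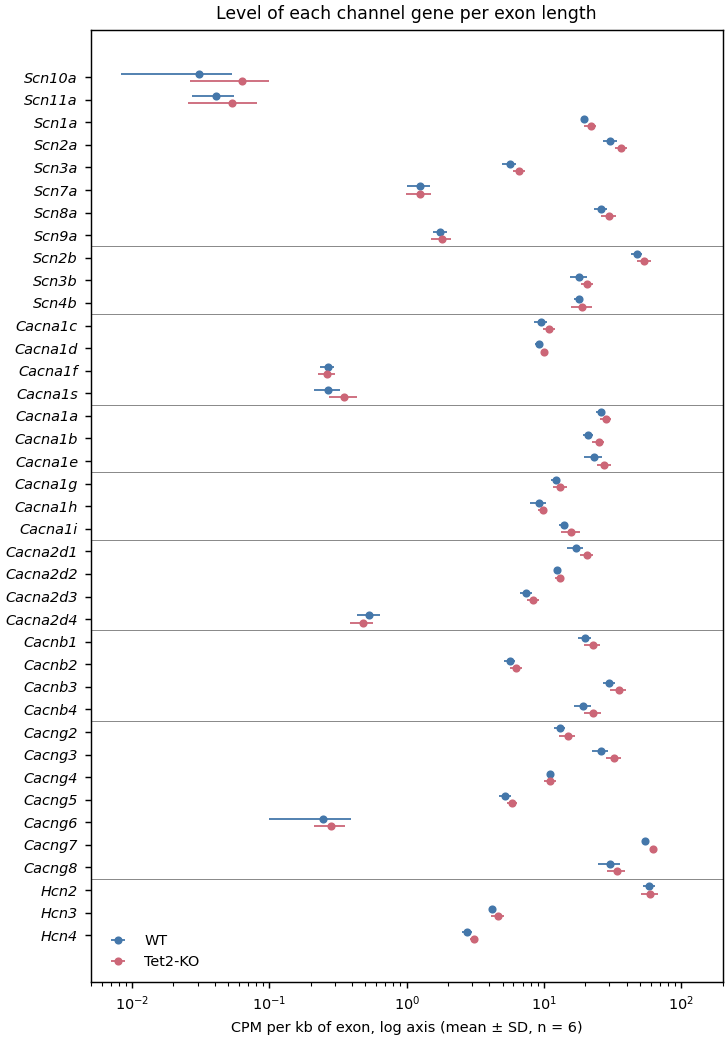
Level of 39 of the 42 channel genes per exon length, in CPM per kilobase on a log axis, grouped by subfamily. Points are the means of 6 mice and bars ± SD, blue for WT and red for *Tet2*-KO. *Hcn2* (58.3 in WT) is the highest shown and *Scn10a* (0.0309) the lowest, and the red point lies right of the blue one in most rows.

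The DNA just before the transcription start is shown for 4 members that the results turn on: *Scn2a*, the sodium channel alpha gene highest per length, *Cacna1b*, the calcium alpha1 gene with the smallest p, *Cacng7*, the member with the smallest p of all, and *Hcn2*, the highest Hcn gene, whose fold change lay near 0. Each is the 250 bases before a RefSeq transcription start in GRCm38.p6, read 5′ to 3′ on the gene's own strand. Capitals mark the GC box letters GGGCGG, or their reverse complement CCGCCC where the match is on the other strand. The windows are chr2:65620519-65620768 (plus strand) for *Scn2a*, chr2:24763153-24763402 (minus strand) for *Cacna1b*, chr7:3332575-3332824 (plus strand) for *Cacng7* and chr10:79716384-79716633 (plus strand) for *Hcn2*.
Scn2a: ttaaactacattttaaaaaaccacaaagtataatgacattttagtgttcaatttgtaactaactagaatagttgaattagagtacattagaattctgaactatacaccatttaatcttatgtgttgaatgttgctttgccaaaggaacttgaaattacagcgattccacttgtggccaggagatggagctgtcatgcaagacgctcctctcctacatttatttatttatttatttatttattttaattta
Cacna1b: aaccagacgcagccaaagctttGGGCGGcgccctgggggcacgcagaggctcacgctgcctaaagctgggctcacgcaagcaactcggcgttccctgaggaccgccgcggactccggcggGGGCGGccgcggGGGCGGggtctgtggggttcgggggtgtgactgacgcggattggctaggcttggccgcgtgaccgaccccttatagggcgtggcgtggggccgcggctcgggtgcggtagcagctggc
Cacng7: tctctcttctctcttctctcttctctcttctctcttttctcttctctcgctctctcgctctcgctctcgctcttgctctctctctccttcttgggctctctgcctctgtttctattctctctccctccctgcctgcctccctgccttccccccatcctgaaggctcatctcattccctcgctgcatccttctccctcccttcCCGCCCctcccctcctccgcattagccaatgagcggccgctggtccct
Hcn2: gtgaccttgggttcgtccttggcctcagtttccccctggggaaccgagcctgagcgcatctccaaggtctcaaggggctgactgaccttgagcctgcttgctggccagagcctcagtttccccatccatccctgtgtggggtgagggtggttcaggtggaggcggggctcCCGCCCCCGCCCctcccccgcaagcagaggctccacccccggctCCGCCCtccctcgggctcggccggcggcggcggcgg
The *Scn2a* window is AT-rich, with 29.6% G or C and 0 GC boxes. The *Cacna1b* and *Hcn2* windows are GC-rich (72% and 70.4%) with 3 GC boxes each, and the *Cacng7* window has 58% G or C and 1 GC box. RefSeq windows were matched for 31 of the 42 members, 42 windows in all since some genes have several starts. A GC box on either strand was found in 17 of them (40.5%), against 32.7% of all 32851 windows of this length, and the letters TATAAA on either strand in 2 (4.76%), against 12.4%. GC content of the member windows ranged from 29.6% to 86.4% with a median of 56.8%, against a median of 52.4% over all windows. The RefSeq start of *Cacng7* lies upstream of the gene start in the annotation used for the counts. These are letter matches, and no factor binding was measured.

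All 7 tested sodium channel alpha genes had a fold change above 0, with a median of 0.19 on the log2 scale. At an unadjusted p below 0.05, 5 were higher, against 10.8% of all tested genes. *Scn2a* (chr2:65620771-65767447), which encodes the main channel of excitatory neurons and their axon initial segments, was read at 299 to 427 CPM (median 403) in WT and 406 to 521 CPM (median 479) in *Tet2*-KO mice. Of the *Tet2*-KO mice, 4 of 6 lay above every WT mouse, while 3 WT mice lay below every *Tet2*-KO mouse. Its log2 fold change was 0.27 ± 0.087 (edgeR adjusted p = 0.126, exact two-sided permutation p = 0.0216), or 20.4% higher on the linear scale. With 924 assignments of 12 mice the smallest permutation p possible is 0.00216. *Scn8a* (chr15:100869858-101045938), the channel of mature initial segments and nodes of Ranvier, was read at 321 to 448 CPM (median 427) in WT and 394 to 542 CPM (median 485) in *Tet2*-KO mice. The groups overlapped in the range of the 2 lowest *Tet2*-KO mice, 4 of 6 exceeded every WT mouse, and the log2 fold change was 0.19 ± 0.091 (edgeR adjusted p = 0.214, exact permutation p = 0.0844). *Scn1a* (chr2:66270778-66440840), best known from fast-spiking interneurons and Dravet syndrome, was read at 197 to 233 CPM (median 221) and 212 to 276 CPM (median 235). Here only WT mouse 2 lay below all *Tet2*-KO mice, and the log2 fold change was smaller, 0.15 ± 0.068 (edgeR adjusted p = 0.211, exact permutation p = 0.0866).

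*Scn3a* (chr2:65457118-65567627), a channel abundant in the developing brain, was read at 55.4 to 76.9 CPM (median 72.6) in WT and 72.1 to 93.1 CPM (median 81.3) in *Tet2*-KO mice. All 6 *Tet2*-KO mice lay above the WT mean, and the log2 fold change was 0.23 ± 0.082 (edgeR adjusted p = 0.142, exact permutation p = 0.0260). The fold changes of *Scn9a* and *Scn7a* lay near 0. *Scn9a*, known from pain-sensing neurons, ranged from 19.6 to 26.3 CPM in WT and 17.5 to 26.9 CPM in *Tet2*-KO mice (log2 fold change 0.039 ± 0.11). *Scn7a*, a sodium-sensing channel relative found in glia of salt-sensing brain regions, ranged from 6.77 to 11.74 and 7.37 to 12.1 CPM (log2 fold change 0.0035 ± 0.15), and both were turned to the other sign by limma-voom, with *Scn7a* also under a stricter count filter. *Scn10a* and *Scn11a* had 67 and 52 reads in all, 0 to 13 and 2 to 12 per library, too few to be tested.

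Sodium channel beta subunits are small membrane proteins that tune gating and surface level of the alpha subunits. Over 4 tested genes their median log2 fold change was 0.19. At an unadjusted p below 0.05, 2 of them were higher, against 10.8% of all tested genes. *Scn2b*, which is linked covalently to alpha subunits, had a log2 fold change of 0.18 ± 0.079, and 5 *Tet2*-KO mice lay above every WT mouse (WT 183 to 237, *Tet2*-KO 209 to 298 CPM). For *Scn3b* the log2 fold change was 0.19 ± 0.10 (WT 71.2 to 113, *Tet2*-KO 97.5 to 126 CPM), and 0.12 without WT mouse 2, which also took the median of the beta genes to 0.12. *Scn4b*, the subunit of resurgent current in striatal and cerebellar neurons, had 0.081 ± 0.094, with 2 *Tet2*-KO mice above the WT mean (WT 80.6 to 99.4, *Tet2*-KO 79.0 to 123 CPM), and -0.0051 without *Tet2*-KO mouse 1.

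L-type calcium channels, which signal from dendrites and cell bodies to the nucleus, were represented by a pair of well-expressed neuronal genes and a pair of traces. *Cacna1c* (chr6:118587240-119196418), the predominant L-type gene of brain, was read at 163 to 219.5 CPM (median 211) in WT and 196 to 258 CPM (median 234) in *Tet2*-KO mice. All but one of the *Tet2*-KO mice, 5 of 6, lay above every WT mouse, and the log2 fold change was 0.20 ± 0.079 (edgeR adjusted p = 0.165, exact permutation p = 0.0411). *Cacna1d* (chr14:30039939-30491455), whose channels open at lower voltage, was read at 106 to 127 CPM (median 116) in WT and 118 to 135 CPM (median 127) in *Tet2*-KO mice. The difference was small but the spread was too, with 4 WT mice below all *Tet2*-KO mice, and the log2 fold change was 0.12 ± 0.051 (edgeR adjusted p = 0.172, exact permutation p = 0.0281). *Cacna1f* was read at 2.08 to 2.80 CPM in WT and 1.90 to 2.85 CPM in *Tet2*-KO mice (log2 fold change -0.024 ± 0.14, of the other sign under upper quartile scaling). *Cacna1s* had a log2 fold change of 0.39 ± 0.19 from 16 to 53 reads per library, and 20% of its exon bases overlap *Gm37759* on the opposite strand, which cannot be separated without strand. Of the 5 skeletal muscle markers 2 had enough reads to be tested, *Acta1* and *Actn3*, and the list summed to 4.09 to 8.26 CPM in WT and 7.19 to 9.75 CPM in *Tet2*-KO mice, with *Myh4* and *Tnnt3* at 0 in some libraries, and their part in the *Cacna1s* value was not tested.

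Presynaptic calcium channels, the P/Q, N and R types that trigger transmitter release, had the highest median of the subfamilies, 0.26 over 3 genes. *Cacna1b* (chr2:24603887-24763152), the N-type gene whose GC-rich upstream window is printed above, was read at 177 to 224 CPM (median 211) in WT and 213 to 279.7 CPM (median 256) in *Tet2*-KO mice. In this gene 5 of 6 *Tet2*-KO mice lay above every WT mouse, the exception being mouse 5. Its log2 fold change was 0.26 ± 0.072 (edgeR adjusted p = 0.115, exact permutation p = 0.0130), or 19.7% higher on the linear scale. *Cacna1e* (chr1:154390731-154884501), the R-type gene, had the highest CPM of all members and has 25.2 kb of exon, and it was read at 409 to 634 CPM (median 613) in WT and 596 to 783 CPM (median 709) in *Tet2*-KO mice. All 6 *Tet2*-KO mice exceeded the WT mean and 4 exceeded every WT mouse, and the log2 fold change was 0.26 ± 0.11 (edgeR adjusted p = 0.165, exact permutation p = 0.0411). *Cacna1a* (chr8:84388440-84640246), the P/Q-type gene of most central synapses and of cerebellar Purkinje cells, was read at 254 to 308 CPM (median 303) in WT and 285 to 356 CPM (median 327) in *Tet2*-KO mice. With 4 *Tet2*-KO mice above and 2 within the WT range, its log2 fold change was 0.12 ± 0.067 (edgeR adjusted p = 0.296, exact permutation p = 0.126), and 0.079 without WT mouse 2.

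T-type calcium channels open near rest and support burst firing in thalamus and elsewhere. None of these 3 genes was below an unadjusted p of 0.05 in edgeR, and their median log2 fold change was 0.11. With 3 genes, and 10.8% of all tested genes higher at that level, a count of 0 says nothing particular to the T type. Without WT mouse 2 the median was 0.072. *Cacna1i* (chr15:80287238-80398279), the T-type gene highest per length and prominent in the reticular thalamus, was read at 116 to 148 CPM (median 140.4) in WT and 124 to 191 CPM (median 155) in *Tet2*-KO mice. Its *Tet2*-KO mice were spread widely, 4 of them above every WT mouse, and the log2 fold change was 0.18 ± 0.091 (edgeR adjusted p = 0.244, exact permutation p = 0.136). *Cacna1g* (chr11:94408391-94474198), the main gene of thalamic relay neurons, was read at 106 to 135 CPM (median 125) and 115 to 150.3 CPM (median 135). The groups overlapped over most of their range, and the log2 fold change was 0.11 ± 0.077 (edgeR adjusted p = 0.404, exact permutation p = 0.247). For *Cacna1h* it was 0.10 ± 0.079 (WT 70.7 to 103, *Tet2*-KO 88.3 to 105 CPM). Without WT mouse 2 the log2 fold changes of *Cacna1g* and *Cacna1h* were 0.072 and 0.044, and without *Tet2*-KO mouse 1 that of *Cacna1i* was 0.12.

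The auxiliary calcium channel subunits came next. The alpha2delta genes raise channel density at the presynaptic membrane. Of these, 2 of 4 were higher at an unadjusted p below 0.05 in edgeR, against 10.8% of all tested genes. *Cacna2d1* (chr5:15934691-16374511), a gabapentin target, was read at 159 to 238 CPM (median 218) in WT and 215 to 281 CPM (median 262) in *Tet2*-KO mice. All 6 *Tet2*-KO mice lay above the WT mean, and the log2 fold change was 0.27 ± 0.092 (edgeR adjusted p = 0.135, exact permutation p = 0.0238). *Cacna2d3* had 0.16 ± 0.075 and *Cacna2d2*, high in cerebellar Purkinje cells, 0.071 ± 0.053, with ranges of 53.6 to 71.2 against 64.9 to 84.2 CPM and 92.7 to 105 against 93.6 to 112 CPM. Without *Tet2*-KO mouse 4 the value of *Cacna2d2* was 0.043. *Cacna2d4*, a retinal subunit, had a log2 fold change of -0.16 ± 0.15, the lowest of the tested members, at 4.04 to 6.81 CPM in WT and 3.62 to 5.59 CPM in *Tet2*-KO mice. Its highest library was WT mouse 2, without which the value was -0.054 and no longer the lowest, that of *Cacna1f* being -0.065. Without *Tet2*-KO mouse 1 or 6 it was -0.10.

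Of the 4 *Cacnb* genes, whose cytoplasmic subunits carry alpha1 to the membrane, 3 were higher at an unadjusted p below 0.05. Of all tested genes 10.8% were, and the median log2 fold change of the 4 was 0.21. *Cacnb3* (chr15:98630840-98644529), the highest per length, was read at 97.1 to 131 CPM (median 125) in WT and 114 to 162 CPM (median 141) in *Tet2*-KO mice. Of the *Tet2*-KO mice 2 were within the WT range and 4 lay above it, and the log2 fold change was 0.23 ± 0.089 (edgeR adjusted p = 0.159, exact permutation p = 0.0584). *Cacnb4*, the gene of the lethargic mouse, had 0.25 ± 0.11 (WT 134 to 205, *Tet2*-KO 168 to 243 CPM), with 16% of its exon bases overlapped by *A430018G15Rik* on the opposite strand. *Cacnb1* had 0.18 ± 0.094 (WT 72.2 to 96.9, *Tet2*-KO 83.0 to 116 CPM) and *Cacnb2* had 0.16 ± 0.074 (WT 62.2 to 81.7, *Tet2*-KO 73.9 to 96.6 CPM).

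The *Cacng* genes held the member with the smallest p. *Cacng7* (chr7:3332955-3368221), a type II TARP, was read at 124 to 141 CPM (median 136) in WT and 136 to 162 CPM (median 155) in *Tet2*-KO mice. In *Cacng7*, 5 *Tet2*-KO mice lay above all WT mice and 4 WT mice below all *Tet2*-KO mice, so that only *Tet2*-KO mouse 5 and 2 WT mice overlapped. Its log2 fold change was 0.20 ± 0.051 (edgeR adjusted p = 0.110, exact permutation p = 0.00649), or 14.7% higher on the linear scale. *Cacng3* (chr7:122670492-122769393), a TARP of cortical neurons, was read at 53.4 to 81.2 CPM (median 75.0) in WT and 74.4 to 101 CPM (median 92.9) in *Tet2*-KO mice. Its fold change was the largest among the *Cacng* genes, with 4 *Tet2*-KO mice above all WT mice and 3 WT mice below all *Tet2*-KO mice, at 0.33 ± 0.10 on the log2 scale (edgeR adjusted p = 0.124, exact permutation p = 0.0195). *Cacng2*, stargazin, had 0.19 ± 0.084 (WT 60.6 to 77.2, *Tet2*-KO 69.7 to 98.6 CPM). *Cacng8*, enriched in hippocampus, had 0.17 ± 0.13 with a wide range in both groups (WT 46.4 to 84.99, *Tet2*-KO 65.2 to 91.0 CPM), and 0.078 without WT mouse 2. *Cacng5* had 0.16 ± 0.079 (WT 16.9 to 22.4, *Tet2*-KO 19.5 to 24.5 CPM). *Cacng4*, a TARP also expressed in glia, lay at -0.0034 ± 0.064 (WT 38.1 to 43.1, *Tet2*-KO 34.7 to 44.4 CPM), and its sign turned with limma-voom, upper quartile scaling or no filter. *Cacng6*, a muscle-type gene, had 92 reads in all, 3 to 12 per library, and was not tested.

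Over the 4 Hcn channel genes the median log2 fold change was 0.14. At an unadjusted p below 0.05, 2 of them were higher, against 10.8% of all tested genes. *Hcn2* (chr10:79716634-79736108), the channel of thalamic relay neurons and the most abundant Hcn gene, was read at 161 to 209.8 CPM (median 182) in WT and 164 to 221 CPM (median 186) in *Tet2*-KO mice. In *Hcn2*, 2 *Tet2*-KO mice lay above all WT mice, 1 WT mouse lay below all *Tet2*-KO mice and 3 of 6 *Tet2*-KO mice lay above the WT mean, and the log2 fold change was 0.029 ± 0.089 (edgeR adjusted p = 0.881, exact permutation p = 0.805). The interval of ± 2 SE around it ran from -0.15 to 0.21, which holds the median of the members. *Hcn4* had 0.16 ± 0.069, with all 6 *Tet2*-KO mice above the WT mean (WT 14.4 to 18.5, *Tet2*-KO 17.7 to 20.9 CPM). *Hcn3* had 0.13 ± 0.076 (WT 15.7 to 18.7, *Tet2*-KO 16.7 to 23.0 CPM) and 0.070 without *Tet2*-KO mouse 1, and 17.1% of its exon bases overlap *Pklr* on the opposite strand.

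**Figure D3:**
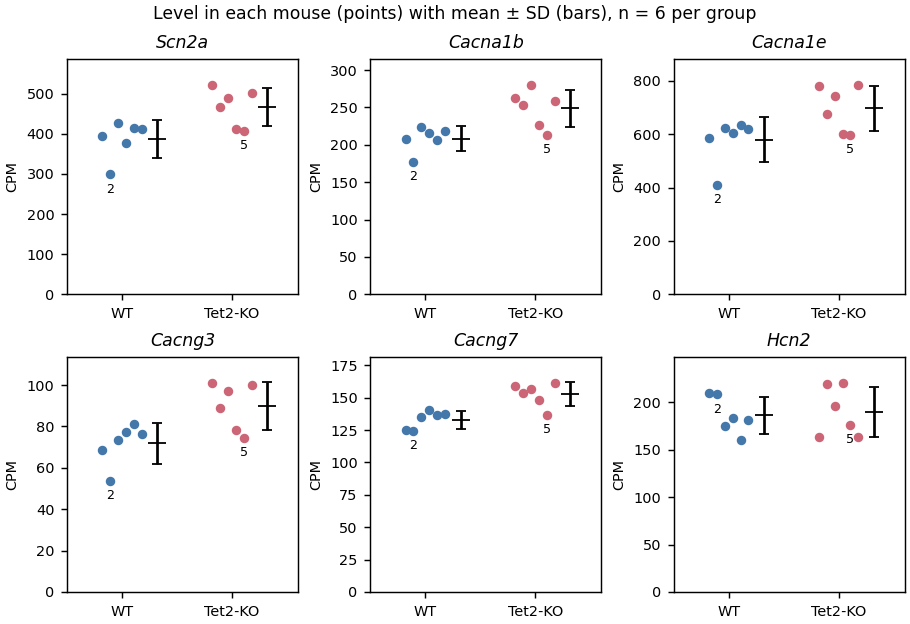
Level in CPM (y axis from 0) of 6 channel genes in each mouse, WT in blue and *Tet2*-KO in red, with mean ± SD beside the points (n = 6). Mouse 2 of WT and mouse 5 of *Tet2*-KO are numbered. The points of *Cacng7* and *Cacna1b* overlap least, while in *Hcn2* 3 of 6 *Tet2*-KO mice lie above the WT mean.

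Shares of each family's signal were compared between its genes. On the scale of CPM per kilobase, *Scn2a* made up 35.2% ± 1.12 of all sodium alpha signal in WT and 36.8% ± 0.544 in *Tet2*-KO mice (SD), the highest share in all 12 mice. *Scn8a* made up 30.2% ± 0.735 and 29.9% ± 1.41, and *Scn1a* 23.0% ± 1.10 and 21.9% ± 0.983. Among presynaptic alpha1 genes *Cacna1a* was 37.2% ± 1.38 and 34.8% ± 1.30, *Cacna1e* 32.8% ± 2.02 and 34.1% ± 1.46, and *Cacna1b* 30.05% ± 1.05 and 31.0% ± 0.838. *Cacna1a* was highest in 11 mice and *Cacna1e* in 1, and in *Tet2*-KO mice these shares differed by less than their SDs. *Cacna1c* and *Cacna1d* were near parity within the L type, with 49.3% ± 1.64 and 47.9% ± 1.42 in WT mice, *Cacna1c* being the higher in 10 of 12 mice. *Hcn2* held 80.7% ± 2.46 of the Hcn signal in WT and 78.8% ± 3.47 in *Tet2*-KO mice. These shares are descriptions and were not tested. Summed over all 42 genes, the signal was 708 ± 49.2 CPM per kilobase in WT and 804 ± 72.2 in *Tet2*-KO mice, a ratio of 1.13.

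The spread within groups came largely from the same animals in gene after gene. WT mouse 2 was the lowest WT mouse in 28 of the 39 tested members (71.8%), while it was the lowest in 26.7% of all tested genes, and in 27 members it was the lowest of all 12 mice. *Tet2*-KO mouse 5 was the lowest of its group in 21 members (53.8%, against 21.1% of all tested genes) and mouse 4 in 12 (30.8%, against 15.9%). *Tet2*-KO mouse 1 was the highest of its group in 17 (43.6%, against 17.7%). The median deviation of the members from their means over 12 mice was -0.33 (log2) in WT mouse 2 and between -0.096 and -0.012 in the other 5 WT mice. In *Tet2*-KO mice it was 0.25, 0.14, 0.14 and 0.17 in mice 1, 2, 3 and 6, and -0.038 and -0.086 in mice 4 and 5, which thus lay in the WT range. The sum of activated phagocyte markers was highest in WT mouse 2, and its median deviation was above 0 in all WT mice and in *Tet2*-KO mouse 5 (0.98), near 0 in mouse 4 (-0.051) and -1.23 to -3.19 in the other 4, and its part in the channel values was not tested.

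Counts of members moved with these animals. Without WT mouse 2, 11 members were higher at an unadjusted p below 0.05 (7.37% of all genes were). They were 3 of 7 sodium alpha genes, 0 of 4 sodium beta genes and 1 of 4 L-type genes. Presynaptic genes gave 2 of 3 and T-type genes 0 of 3. The rest were 1 of 4 alpha2delta, 1 of 4 *Cacnb*, 2 of 6 *Cacng* and 1 of 4 Hcn genes. Without *Tet2*-KO mouse 1, 2 or 6 the number was 10 (7.86%), 12 (8.67%) or 11 (8.24%). Without *Tet2*-KO mouse 5, 6 members passed the adjusted threshold, among them *Scn2a*, *Cacna1b*, *Cacnb3*, *Cacng3* and *Cacng7*, where 3.7% of all genes were called higher. Without both WT mouse 2 and *Tet2*-KO mouse 5, 7 passed, the former 6 and *Cacna2d1*, against 2.65% of all genes. The share of all genes called thus differed between these fits as well.

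**Figure D4:**
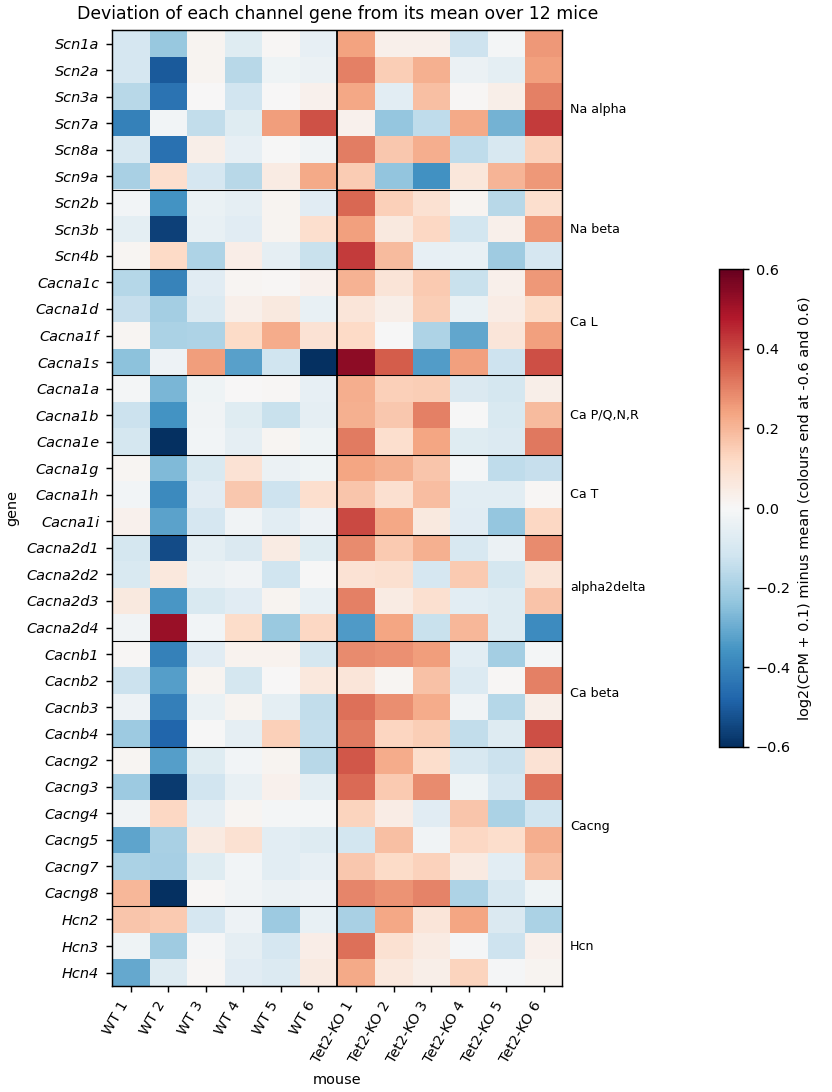
Deviation of log2(CPM + 0.1) from the mean over 12 mice for 36 tested channel genes (rows, by subfamily) in each mouse (columns, WT left of the line and *Tet2*-KO right of it), red above and blue below 0. Colours end at -0.6 and 0.6. The column of WT mouse 2 is blue in most rows, and columns 1, 2, 3 and 6 of *Tet2*-KO are mostly red while 4 and 5 are pale.

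Set against neuron markers, the difference between groups was near 0. For each mouse the mean log2 level of the 10 neuron markers, which differed by 0.20 between groups, was subtracted from the log2 level of each member, a measure added after the values had been seen and given without a test. The median difference over members went from 0.18 to -0.021, and 28 of the 39 lay within 0.1 of 0. *Cacna1s* (0.16) and *Cacng3* (0.13) lay above 0, and the most negative were *Cacna2d4* (-0.36), *Cacna1f* (-0.22), *Cacng4* (-0.21), *Scn7a* (-0.19) and *Hcn2* (-0.17). The median SD within groups was 0.102 on this scale, against 0.175 on the log2 CPM scale. *Cacng7* had a difference near 0 (6.1e-05), as had *Scn8a* (-0.0043).

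**Figure D5:**
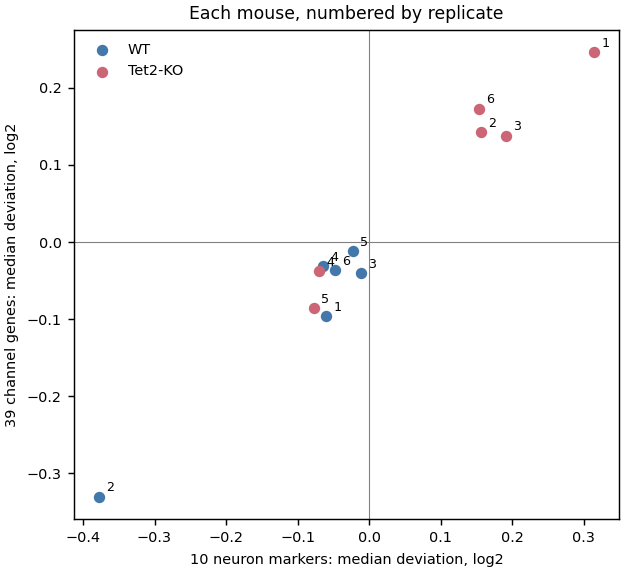
Each mouse placed by the median log2 deviation of the 10 neuron markers (x axis) and of the 39 tested channel genes (y axis), blue for WT and red for *Tet2*-KO, numbered by replicate. The mice lie close to a diagonal from WT mouse 2 (-0.38, -0.33) to *Tet2*-KO mouse 1 (0.31, 0.25), and *Tet2*-KO mice 4 and 5 lie among the WT mice.

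Partners of the channels were taken from lists of proteins that bind, anchor or respond to them or belong to related channels. The sodium list holds *Nalcn*, *Unc79*, *Unc80* and *Fam155a*, genes of a separate sodium leak channel. Each of these was higher in *Tet2*-KO mice at an unadjusted p below 0.05 in edgeR. The partner counts at an unadjusted p below 0.05 stand against 10.8% of all tested genes higher and 12.2% lower. Of 17 tested sodium channel partners, 10 were higher and 0 lower at that level, with a median log2 fold change of 0.18. *Nedd4l*, a ubiquitin ligase that removes sodium channels from the membrane, was read at 147 to 190 CPM (median 176) in WT and 185 to 225 CPM (median 209.5) in *Tet2*-KO mice (log2 fold change 0.26 ± 0.069, edgeR adjusted p = 0.112). *Fgf12*, an intracellular FGF that binds the alpha subunit tail, had 0.29 ± 0.083 (edgeR adjusted p = 0.121). Of 28 calcium channel partners 13 were higher and 2 lower, with a median of 0.20. *Gria4*, an AMPA receptor subunit, had 0.22 ± 0.054 (edgeR adjusted p = 0.110) and *Stac2*, an adaptor of L-type channels, 0.25 ± 0.070 (edgeR adjusted p = 0.118). The 2 lower partners were *Gem* (-0.63 ± 0.26) and *Rrad* (-0.43 ± 0.18), small GTPases that restrain calcium channels and that are not specific to neurons, each read below 6 CPM. Of 5 HCN channel partners 1 was higher, *Kctd3* (0.12 ± 0.049), and 2 were lower, the widely expressed actin crosslinker filamin *Flna* (-0.53 ± 0.17) and the potassium channel subunit *Kcne2* (-0.34 ± 0.15), which is high in choroid plexus. Without WT mouse 2, 9 sodium channel partners were higher, 9 calcium channel partners were higher and 0 lower, and 0 HCN channel partners were higher and 1 lower. In that fit 7.37% of all genes were higher and 7.92% lower. *Pex5l*, a brain protein that binds Hcn channels, had 0.13 ± 0.060 (edgeR adjusted p = 0.221), and 0.080 without WT mouse 2. No partner passed the adjusted threshold.

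Channel genes are long, and gene length was compared. Protein-coding genes spanning at least 100 kb had a median log2 fold change of 0.061, with 26.2% of 2324 tested higher at an unadjusted p below 0.05, against 53.8% of the members. Those with at least 5 kb of exon had a median of 0.020 and 16.6% higher. Several members are neighbours in the genome. On chromosome 2, *Scn3a*, *Scn2a*, *Scn1a*, *Scn9a* and *Scn7a* lie in a row, and within this row the log2 fold changes ran 0.23, 0.27, 0.15, 0.039 and 0.0035. On chromosome 9 *Scn2b* (0.18) and *Scn4b* (0.081) are 8.32 kb apart, and on chromosome 6 *Cacna1c* (0.20) is followed by *Cacna2d4* (-0.16) after 40.1 kb. The differences between neighbouring genes were not tested.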

How the data were processed

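Bulk RNA-sequencing counts of 12 mouse brains were used, 6 per group, with groups and replicate numbers from the sample titles. In the labels of *Tet2*-KO samples the treatment names control cells but title and genotype name *Tet2*-KO, and the latter were followed. Per the study's methods and the submitters' processing notes, rRNA-depleted libraries were trimmed with Trimmomatic 0.36, aligned to mm10 with STAR 2.5.2b and counted with featureCounts (Subread 1.5.2). The authors deposited raw counts per gene without normalization. Only uniquely mapped reads were counted, so reads from stretches shared by related channel genes are missing, and the strand setting is not given in the sources used here. Per-gene precision depends on totals of 12000261 to 21049763 reads, and p-values weigh the difference between groups against the spread between mice.

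Symbols, exon lengths and coordinates came from GENCODE M21 (GRCm38). In R 4.3.3, genes kept by filterByExpr (20290) were TMM-scaled and tested in edgeR 4.0.16 (quasi-likelihood, robust, no covariates) with Benjamini-Hochberg adjustment over all tested genes at 0.05. SE was taken as log2 fold change over the root of F. Single genes were also tested by exact two-sided permutation of mean log2(CPM + 0.1). DESeq2 1.42.0 and limma 3.58.1 (voom) served as alternatives, with other scalings, filters, a replicate block and the omission of each mouse, and the model scripts were tested on simulated data. The own values of 3 members are not reported here, and these genes remain in counts, medians and sums over members. Every other member is named. Described in full are the 12 with the smallest p, the member of each subfamily highest per length, and 9 listed genes (*Scn1a*, *Scn2a*, *Scn3a*, *Scn8a*, *Cacna1a*, *Cacna1b*, *Cacna1c*, *Cacna1g*, *Hcn2*), 16 in all, and of each partner list the 2 with the smallest p in each direction. The members and lists were chosen with earlier results of these data known. Promoter sequence is RefSeq's (GRCm38.p6).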

Additional observations from a re-analysis of the deposited data

Results flagged for a closer look

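In 78 groups of 6 values (39 members, tested or not, in each group of mice), 1 mouse lay far from the others in 10, by the gap to its nearest neighbour as a share of the range. Chance gives this in about 1 in 20 groups when a group is read alone. The groups are the same 12 mice in different genes and are not independent, so the 10 cannot be set against that rate. All 10 were WT mouse 2. Its level was low in *Scn8a* (321 CPM, the other WT mice 409 to 448), *Scn2b* (183), *Scn3b* (71.15), *Cacna1a* (254), *Cacna1b* (177), *Cacna1e* (409, the others 586 to 634), *Cacna2d1* (159), *Cacnb1* (72.2) and *Cacng8* (46.4). It was high in *Cacng4* alone (43.1 CPM, the others 38.1 to 39.9). The neuron-marker sum of the same mouse was 4020 CPM, the lowest of all, and its activated phagocyte sum of 2702 CPM the highest; their part in these values was not tested.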

How the results depend on the processing

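Among 780 values of the 39 tested members under 20 alternatives, 732 kept their direction and side of the adjusted threshold, 22 kept their direction and passed the threshold, and 26 turned sign, all in 6 members with fold changes near 0. *Scn7a* was -0.0458 with limma-voom and -0.0017 with at least 10 counts in every library (-0.086 to 0.088 when 1 mouse was left out), *Scn9a* -0.0419 with limma-voom (-0.0094 to 0.11), *Cacna1f* 0.0092 with upper quartile scaling (-0.076 to 0.034), and *Cacng4* 0.018 with limma-voom, 0.031 with upper quartile scaling and 0.0004 without a filter (-0.043 to 0.032), while *Scn4b* (-0.0051 to 0.13) and *Hcn2* (-0.021 to 0.070) turned only when 1 mouse was left out. The number of members above 0 was 35 to 38 of 39, not always the same ones. The number of all genes past the threshold was 5, but 902 with DESeq2, 1863 with limma-voom, 44 without a filter and 0 with at least 10 counts in every library, and 0 to 2257 when 1 mouse was left out. Members past it were 0, but 3 with DESeq2, 6 with limma-voom, and 0 to 6 when 1 mouse was left out (6 without *Tet2*-KO mouse 5). Leaving out WT mouse 2 together with *Tet2*-KO mouse 5, an alternative chosen after seeing the data, gave 1554 genes and 7 members, with log2 fold changes of 0.0564 for *Cacng4*, 0.1593 for *Scn4b*, -0.0805 for *Cacna1f* and 0.0844 for *Hcn2*. Members higher at an unadjusted p below 0.05 numbered 10 to 26 when 1 mouse was left out: 10 without *Tet2*-KO mouse 1 (7.86% of all genes), 12 without mouse 2 (8.67%), 11 without mouse 6 (8.24%) and 11 without WT mouse 2. The cause of these shifts was not tested. The replicate numbers did not pair the mice (correlations of same-numbered mice -0.17 to 0.23, only number 6 correlating best with its own). With a replicate block, 0 genes and 0 members passed the threshold and 16 members were higher at an unadjusted p below 0.05 (9.48% of all genes). The median over members was 0.13 to 0.21 when 1 mouse was left out. With 6 mice per group the median SE of a member was 0.089, against a median fold change of 0.18, and depth limits *Scn10a*, *Scn11a* and *Cacng6*.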

Other observations

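Markers of neuron subtypes and of other brain cells were set beside the channel genes. The counts of markers at an unadjusted p below 0.05 in edgeR stand against 10.8% of all tested genes higher and 12.2% lower. At that level, 5 of 8 cortical projection neuron markers were higher and 0 lower (median log2 fold change 0.26), as were 5 of 7 interneuron markers (0.25). Striatal markers had 1 of 8 higher and 0 lower (0.10), thalamic markers 1 higher and 1 lower of 6 (0.00052), and cerebellar markers 1 higher and 1 lower of 6 tested (0.27, or 0.19 without *Tet2*-KO mouse 4). The cerebellar marker *Cbln3* was read at 15.8 CPM in that mouse, at 9.62 CPM in *Tet2*-KO mouse 2 and at 0.462 to 2.85 CPM in the other 10 mice. Astrocyte markers had 1 of 7 higher and 0 lower (-0.065), microglia markers 0 of 7 in either direction (-0.17), oligodendrocyte markers 0 of 6 (0.013), oligodendrocyte precursor markers 2 of 5 lower (-0.13), endothelial markers 3 of 7 lower (-0.16), and skeletal muscle markers 1 of 2 tested higher (0.44). Without WT mouse 2, 3 cortical projection neuron markers and 3 interneuron markers were higher, 0 astrocyte markers were higher, 0 cerebellar markers, 1 oligodendrocyte precursor marker and 2 endothelial markers were lower, and the other counts were as given. In that fit 7.37% of all genes were higher and 7.92% lower. No marker in these lists had an adjusted p below 0.05. Differences between lists were not tested.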
